A study of Homo sapiens with 12 samples.

Results

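The genes described are 35 genes of homologous recombination, the Fanconi pathway, ATR and ATM checkpoint signalling and, with MSH6, mismatch repair, in human prostate cancer cells treated with palbociclib or its DMSO vehicle. They were chosen by name from known pathway membership, with earlier results of these data known. Shares set below beside those of all genes therefore describe this list, and the part of its choice in them was not tested. All 35 were found by symbol in the DU145 count table and by the same Ensembl gene ID in the C4-2 table. These tables held 57167 and 61860 genes. RNA sequencing covered palbociclib-treated DU145 cells (3 libraries, written Du145 in the labels), DMSO-treated DU145 cells (3), palbociclib-treated C4-2 cells (3, written C42) and DMSO-treated C4-2 cells (2 usable of 3). Palbociclib is an inhibitor of the cyclin-dependent kinases CDK4 and CDK6. No source used here gives its dose or the length of treatment, or says whether replicates were separate cultures; p-values therefore rest on the spread between these libraries alone, which may be technical. DU145 is an established androgen-independent line that lacks functional RB1, the protein through which CDK4 and CDK6 act on E2F factors; C4-2 is an established androgen receptor-positive derivative of LNCaP.

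Homologous recombination repairs DNA breaks by copying the sister chromatid: nucleases resect the break, and mediators such as BRCA2 and PALB2 load the recombinase onto the single strand. The Fanconi pathway deals with crosslinks between strands, with a core complex that joins ubiquitin to the FANCD2-FANCI pair. ATM and ATR are the kinases that sense breaks and stalled forks, and they pass the signal to CHEK2 and CHEK1. Most of these genes are known to be expressed mainly in cycling cells, many of them as targets of E2F factors.

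Totals were 16108999 to 16674393 counts in the 6 DU145 libraries and 2608851 to 3489659 in the 5 usable C4-2 libraries, so the C4-2 values carry more counting error. The sixth C4-2 library, DMSO replicate 3, held 0 counts for every gene and was left out of every fit. Libraries of the same DU145 group differed more when number 3 was in the pair (chi-square per degree of freedom 5.41 to 8.34) than between numbers 1 and 2 (2.36 and 2.37); in C4-2 groups the ratio was 1.14 to 1.18. The libraries labelled C4-2 did not carry the luminal profile of that line. KLK3, KLK2 and FOLH1 were at 0 counts in all 11 libraries, and the 8 luminal markers found summed to 37.4 to 43.7 CPM (counts scaled to a library total of 1000000) in palbociclib C4-2 libraries and 45.3 to 46.4 CPM in DMSO ones. The 5 mesenchymal markers summed to 297 to 319 CPM in palbociclib DU145 libraries and 346 to 365 CPM in DMSO ones, and to 26440 to 26670 CPM in palbociclib C4-2 libraries and 28740 to 28810 CPM in DMSO ones. Results are therefore given for the libraries under these labels. The proliferation genes moved differently with the drug under the 2 labels. MKI67, which marks cycling cells, had 576, 535 and 546 CPM in palbociclib DU145 libraries, against 431, 439 and 443 CPM in DMSO ones, and 211, 230 and 217 CPM in palbociclib C4-2 libraries, against 815 and 811 CPM in DMSO ones. PCNA, the replication clamp, was called only in C4-2, with 37.7, 47.1 and 48.8 CPM in palbociclib libraries, against 166 and 172 CPM in DMSO ones. In DU145 PCNA did not rise with MKI67. It had 232, 225 and 214 CPM with palbociclib, against 243, 249 and 236 CPM with DMSO, groups that did not overlap (-0.09 ± 0.06, edgeR adjusted p = 0.198). The part of these shifts in the results that follow was not tested, and in bulk RNA fewer cycling cells and less RNA per cell cannot be told apart.

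Promoter windows from RefSeq (build GRCh38.p14; 250 bases before to 50 after each annotated start) were available for 32 of the 35 genes, and not for FANCI, NBN and RAD54B. The windows shown are those of the 4 genes with the largest falls in C4-2 (UBE2T, EXO1, BRIP1 and RAD54L) and of FANCD2, the substrate of the pathway; they lie at chr1:202341887-202342186 (minus strand), chr1:241847954-241848253 (plus strand), chr17:61863479-61863778 (minus strand), chr1:46247438-46247737 (plus strand) and chr3:10026187-10026486 (plus strand). Each is written 5′ to 3′ on the strand of the gene, with matches to an E2F-type core or to a cell cycle homology region (CHR) on either strand in capitals. The core is TTCCCGC, or the same letters with CG, GC or GG for the third and the fourth base, shown with a further T at its 5′ end where that is present; the CHR is TTTGAA, or the same with C for the third base.
UBE2T: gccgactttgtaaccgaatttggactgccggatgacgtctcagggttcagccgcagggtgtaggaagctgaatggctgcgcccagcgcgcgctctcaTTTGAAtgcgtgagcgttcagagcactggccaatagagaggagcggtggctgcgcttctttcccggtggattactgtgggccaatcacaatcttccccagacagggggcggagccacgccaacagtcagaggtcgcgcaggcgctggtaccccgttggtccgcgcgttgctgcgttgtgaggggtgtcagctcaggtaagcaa
EXO1: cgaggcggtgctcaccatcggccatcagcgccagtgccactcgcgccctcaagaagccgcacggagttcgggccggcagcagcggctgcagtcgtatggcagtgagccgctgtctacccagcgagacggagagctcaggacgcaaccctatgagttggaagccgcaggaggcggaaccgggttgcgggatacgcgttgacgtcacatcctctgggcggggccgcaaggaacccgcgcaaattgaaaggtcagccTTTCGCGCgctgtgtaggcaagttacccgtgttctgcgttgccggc
BRIP1: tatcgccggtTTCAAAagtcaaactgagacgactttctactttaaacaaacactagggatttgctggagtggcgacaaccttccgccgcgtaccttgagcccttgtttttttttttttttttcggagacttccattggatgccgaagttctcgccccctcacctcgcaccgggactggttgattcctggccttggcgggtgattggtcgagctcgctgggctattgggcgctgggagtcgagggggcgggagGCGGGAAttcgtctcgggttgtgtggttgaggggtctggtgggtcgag
RAD54L: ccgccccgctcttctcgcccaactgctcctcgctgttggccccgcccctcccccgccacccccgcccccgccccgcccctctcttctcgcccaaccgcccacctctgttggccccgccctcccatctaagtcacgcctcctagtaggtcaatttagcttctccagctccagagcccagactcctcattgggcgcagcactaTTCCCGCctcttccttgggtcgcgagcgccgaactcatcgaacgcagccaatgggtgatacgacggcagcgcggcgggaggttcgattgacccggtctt
FANCD2: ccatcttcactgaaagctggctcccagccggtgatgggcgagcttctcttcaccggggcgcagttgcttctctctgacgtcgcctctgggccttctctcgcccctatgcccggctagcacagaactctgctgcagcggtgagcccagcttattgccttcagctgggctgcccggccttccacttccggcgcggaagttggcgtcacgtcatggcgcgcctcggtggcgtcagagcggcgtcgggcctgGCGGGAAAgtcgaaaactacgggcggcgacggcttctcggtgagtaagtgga

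An E2F-type core lay in a window of 18 of the 32 genes (56.2%), against 4169 of all 27305 genes with a window (15.3%) and 20.5% of the protein-coding ones. The form with the further T lay in 7 of the 32 (21.9%), against 3.99% of all genes; EXO1 and FANCD2 hold it, in FANCD2 across the annotated start. A CHR was in 4 of the 32 (12.5%: BRIP1, FANCC, UBE2T and ATM), against 19.5% of all genes and 17.5% of the protein-coding ones. The E2F-type form with the T contains the core, while in the first listed window of each gene no CHR overlapped either. A gene was counted where any of its windows held the motif. The 32 genes have 45 windows, and all 27305 genes have 35116. The windows shown above are the first listed for each gene. These are letter matches and no test was made on them.

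Most of the 35 genes fell in C4-2, several by more than 2-fold, while in DU145 fewer fell and, EXO1 apart, by less. In DU145, 15 genes fell (42.9%), 3 rose (8.57%) and 17 did not pass the test (adjusted p under 0.05 in edgeR's quasi-likelihood test, Benjamini-Hochberg over all genes tested). Of all 15361 genes tested in DU145, 29.2% fell and 28.8% rose, 58.1% in all, so the share of these genes called, 51.4%, was not above the background, although the falls outnumbered the rises. In C4-2, 27 genes fell (77.1%), 2 rose (5.71%) and 6 did not pass; of the 11943 genes tested there, 26.6% fell and 25.2% rose, 51.8% in all. The median log2 fold change of the 35 was -0.15 in DU145 and -0.63 in C4-2, beside -0.01 and 0.00 over all genes tested in each. Falls of at least 2-fold were called for 1 of the 35 genes in DU145 (2.86%, EXO1), against 1133 of all genes tested there (7.38%). In C4-2 they were called for 14 of the 35 (40.0%), against 547 of all genes tested (4.58%). All 35 genes were tested in both fits.

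**Figure D1:**
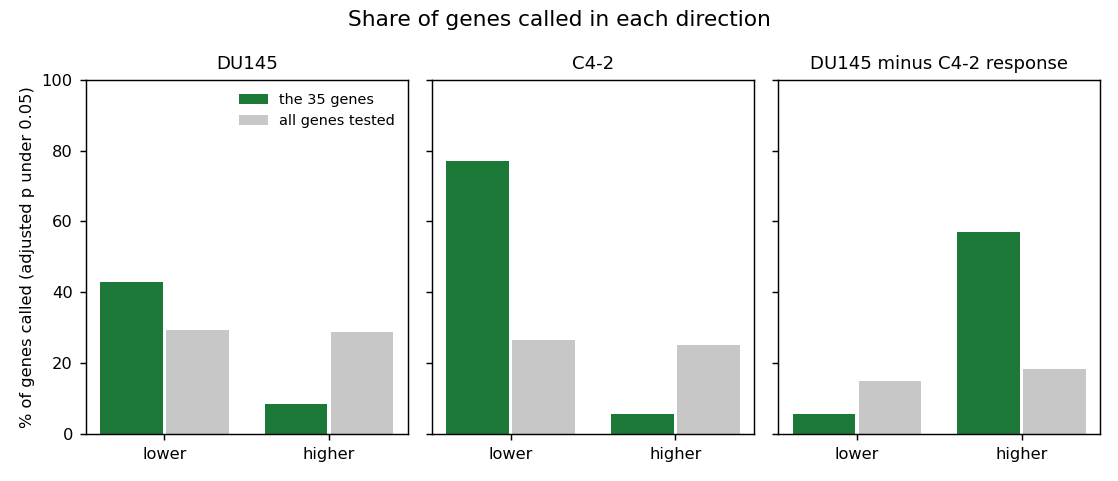
Share of genes called lower or higher (adjusted p under 0.05) among the 35 genes (green) and among all genes tested (grey), as a percentage, for palbociclib over DMSO in DU145 (left), in C4-2 (middle) and for the difference between these responses (right). The 35 genes stand at 77.1% called lower in C4-2, against 26.6% of all genes tested.

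Summed over the 35 genes, the level was 1802.3, 1815.1 and 1656.3 CPM in palbociclib DU145 libraries, against 2119.0, 2169.7 and 1969.1 CPM in DMSO ones. It was 1061.7, 1117.0 and 1092.3 CPM in palbociclib C4-2 libraries, against 1707.9 and 1684.9 CPM in DMSO ones. The groups did not overlap in either line, and the gap was wider in C4-2. Gene by gene, the groups did not overlap, whichever was higher, for 19 of the 35 in DU145 (54.3%), against 62.7% of all genes tested, and for 30 in C4-2 (85.7%), against 66.1%. Every palbociclib library was below every DMSO library for 16 of the 35 in DU145 (45.7%), against 33.4% of all genes tested, and for 28 in C4-2 (80.0%), against 30.3%; with 3 DMSO libraries in DU145 and 2 in C4-2, these counts were not compared between lines. Of the 35 genes, 14 fell under both labels: BRCA1, BRCA2, BARD1, BRIP1, RAD51AP1, EXO1, MRE11, NBN, FANCC, FANCD2, FANCE, FANCG, FANCI and ATRIP. These are 40.0% of the 35, against 8.67% of the 11007 genes tested in both lines. Of the 14, BARD1, FANCI and ATRIP lost the call in DU145, and MRE11 and FANCC the one in C4-2, under at least 1 alternative. FANCF fell only in the DU145 fit, and its difference between lines did not pass the test (-0.76 ± 0.31 SE, edgeR adjusted p = 0.0588). Across the 35 genes the log2 responses in the 2 lines had a Spearman rho of 0.34 (Pearson r 0.41, n = 35 genes); over the 11007 genes tested in both it was 0.03 (Pearson r 0.05), given as a description, since genes are not independent.

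**Figure D2:**
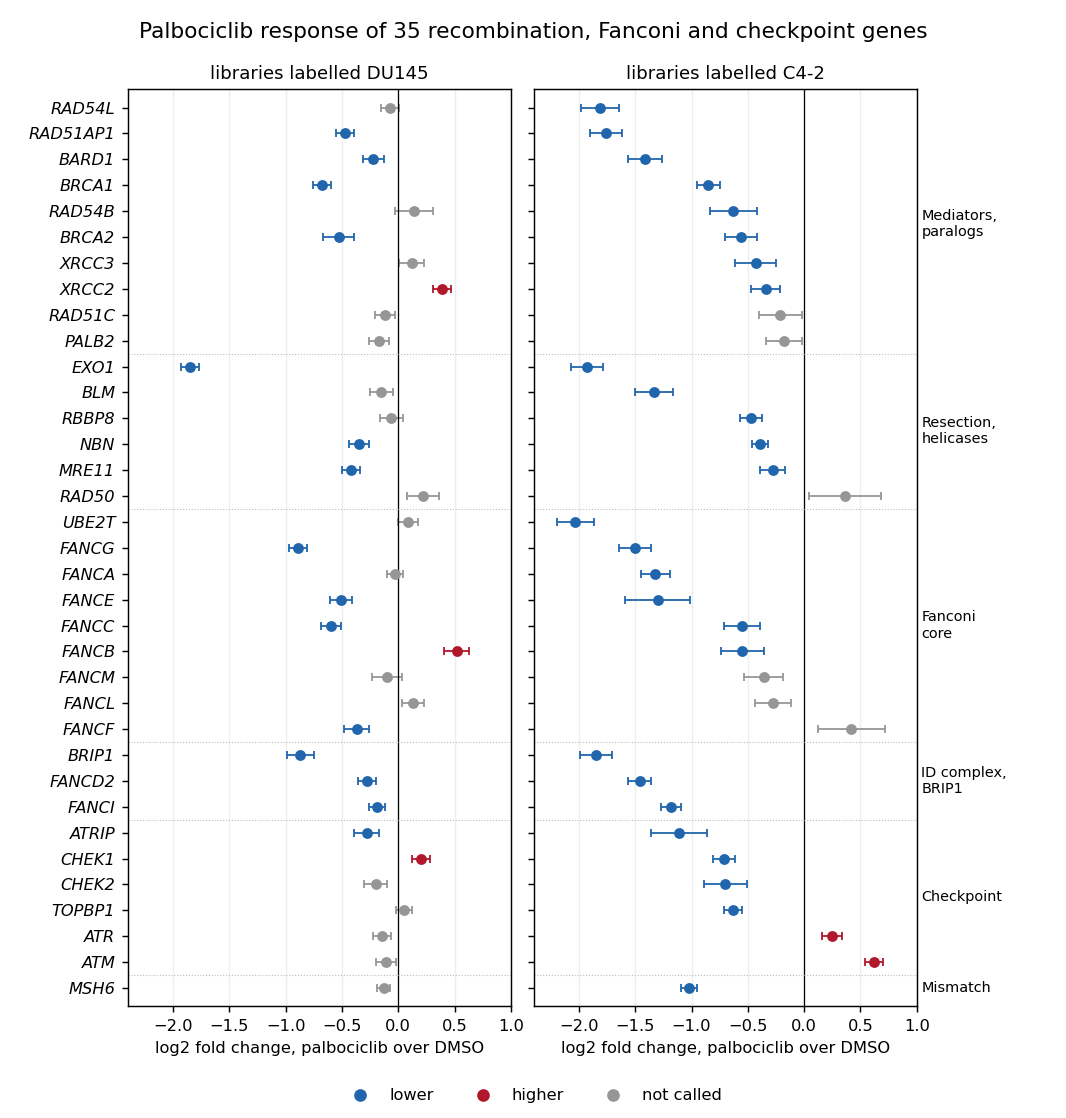
Log2 fold change (palbociclib over DMSO, x axis) of each of the 35 genes in DU145 (left) and C4-2 (right), ordered by role; bars are standard errors and colours give the call at an adjusted p of 0.05. In C4-2 the 27 genes in blue reach -2.03 for UBE2T, while in DU145 only EXO1 lies beyond -1.

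Among the mediators and strand exchange factors, 4 of 10 genes fell and 1 rose in DU145, and 8 of 10 fell in C4-2. BRCA1, the ubiquitin ligase that favours resection and recruits PALB2, had 77.3, 81.5 and 67.0 CPM in palbociclib DU145 libraries, against 119, 132 and 117 CPM in DMSO ones. The C4-2 libraries had 41.5, 57.9 and 58.0 CPM with palbociclib, against 92.3 and 91.5 CPM with DMSO. Every palbociclib library was below every DMSO library under both labels, with log2 fold changes of -0.68 ± 0.08 (SE, edgeR adjusted p = 9.77e-07) in DU145 and -0.85 ± 0.10 (adjusted p = 1.05e-09) in C4-2. BARD1, the obligate partner of BRCA1, responded less evenly. It had 24.3, 23.5 and 21.5 CPM in palbociclib DU145 libraries, against 26.8, 28.5 and 26.5 CPM in DMSO ones. Its C4-2 values were 13.8, 14.9 and 15.4 CPM with palbociclib, against 39.3 and 36.5 CPM with DMSO. The groups were apart in both lines, narrowly in DU145 (-0.22 ± 0.09, edgeR adjusted p = 0.0492) and widely in C4-2 (-1.41 ± 0.15, adjusted p = 7.18e-11). BRCA2, which loads the recombinase, had 19.7, 28.3 and 22.8 CPM in palbociclib DU145 libraries, against 37.4, 40.2 and 26.3 CPM in DMSO ones, where the lowest DMSO library lay inside the palbociclib range. In C4-2 the gene stood at 26.3, 24.1 and 20.7 CPM with palbociclib, against 32.7 and 34.8 CPM with DMSO. Its fold changes were close in size, -0.53 ± 0.14 in DU145 (edgeR adjusted p = 0.00332) and -0.56 ± 0.14 in C4-2 (adjusted p = 0.000758).

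RAD54L, a motor that helps the recombinase invade its template, differed most within this group. It had 40.0, 39.6 and 40.1 CPM in palbociclib DU145 libraries, against 43.3, 39.5 and 44.9 CPM in DMSO ones, and did not pass the test (-0.07 ± 0.08, edgeR adjusted p = 0.485). Its C4-2 levels were 9.69, 9.20 and 9.47 CPM with palbociclib, against 31.8 and 32.5 CPM with DMSO (-1.81 ± 0.17, edgeR adjusted p = 4.34e-12). RAD51AP1, an accessory factor of strand invasion, fell under both labels. Its values were 44.8, 45.6 and 38.9 CPM in palbociclib DU145 libraries, against 61.0, 65.6 and 56.0 CPM in DMSO ones (-0.47 ± 0.08, edgeR adjusted p = 0.000111). In C4-2 they were 14.9, 13.0 and 15.1 CPM with palbociclib, against 51.6 and 42.8 CPM with DMSO (-1.76 ± 0.14, edgeR adjusted p = 4.82e-14). XRCC2, a paralog of the recombinase, was one of 3 genes called higher in DU145 and lower in C4-2 (8.57%, against 8.87% of the genes tested in both lines). It rose in DU145, with 68.2, 65.7 and 60.0 CPM under palbociclib, against 55.1, 50.8 and 44.9 CPM under DMSO (0.39 ± 0.08, edgeR adjusted p = 0.000659). It fell in C4-2, with 31.5, 29.5 and 28.4 CPM under palbociclib, against 39.3 and 33.5 CPM under DMSO (-0.34 ± 0.13, edgeR adjusted p = 0.0227). Of the rest, XRCC3 (-0.43) and RAD54B (-0.63) fell in C4-2 only by call, and PALB2 (-0.17 and -0.18 in DU145 and C4-2) and RAD51C (-0.12 and -0.21) passed in neither line. The XRCC2 fall in C4-2 lost its call without palbociclib replicate 2, palbociclib replicate 3 or DMSO replicate 1 (adjusted p 0.0548, 0.0812 and 0.318), XRCC3 without any of the 3 palbociclib replicates or DMSO replicate 1 (0.0507 to 0.353) and RAD54B without DMSO replicate 2 (0.0568). With DESeq2 all 3 lost it (adjusted p 0.22, 0.277 and 0.138). The BARD1 fall in DU145 lost its call without any one of the 6 libraries (0.0554 to 0.144). In the annotation, 59.1% of the exon bases of RAD54B are shared with FSBP on the same strand, 25.1% of those of RAD54L lie opposite exons of LRRC41, which had more counts than RAD54L in both tables, and 76.7% of those of XRCC3 lie opposite exons of KLC1; reads in shared bases cannot be told apart, for opposite strands where counting ignored strand.

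Of the resection and helicase genes, 3 of 6 fell in DU145 and 5 of 6 in C4-2. EXO1, the exonuclease that extends resected ends, fell most in DU145 and by a similar amount in C4-2. It had 30.4, 26.7 and 28.9 CPM in palbociclib DU145 libraries, against 108, 108 and 99.3 CPM in DMSO ones. In C4-2 it had 13.2, 13.4 and 16.9 CPM with palbociclib, against 53.3 and 55.4 CPM with DMSO. The groups were far apart under both labels: a fall of 3.61-fold in DU145 (-1.85 ± 0.08, edgeR adjusted p = 5.35e-12) and of 3.82-fold in C4-2 (-1.93 ± 0.14, adjusted p = 5.19e-16). The difference between the lines was 0.12 ± 0.17 log2 units (edgeR adjusted p = 0.659), an estimate smaller than its standard error. BLM, the helicase that dissolves joint molecules, had 52.3, 50.8 and 38.1 CPM in palbociclib DU145 libraries, against 52.6, 57.2 and 49.4 CPM in DMSO ones, which overlapped (-0.15 ± 0.10, edgeR adjusted p = 0.225). The C4-2 libraries had 12.5, 14.2 and 11 CPM with palbociclib, against 32.1 and 28.2 CPM with DMSO (-1.33 ± 0.17, edgeR adjusted p = 6.91e-09). Of the nuclease complex that starts resection, MRE11 fell by 0.42 log2 units in DU145 and 0.28 in C4-2, and NBN by 0.35 and 0.39. RAD50, the remaining subunit, passed in neither line (0.22 ± 0.14 and 0.36 ± 0.32), at 15 to 25 counts per C4-2 library; 79.7% of its exon bases are shared with an overlapping gene on the same strand. RBBP8, which activates MRE11, fell in C4-2 (-0.47 ± 0.10, edgeR adjusted p = 0.000158) and not by call in DU145 (-0.06 ± 0.10). The MRE11 call in C4-2 was lost without palbociclib replicate 1, palbociclib replicate 2 or DMSO replicate 2 (adjusted p 0.157, 0.0573 and 0.233) and with DESeq2 (0.237).

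In the Fanconi core group, which here holds the core complex with its ubiquitin-conjugating enzyme UBE2T, 4 of 9 genes fell and 1 rose in DU145, and 6 of 9 fell in C4-2. UBE2T (chr1:202331657-202341980, minus strand in hg38) carried the largest fall of the 35 genes in C4-2 and was not called in DU145 with all 6 libraries. It had 80.0, 71.4 and 57.9 CPM in palbociclib DU145 libraries, against 67.5, 69.0 and 64.1 CPM in DMSO ones, the palbociclib values lying on both sides of the DMSO range (0.09 ± 0.09, edgeR adjusted p = 0.454). Without palbociclib replicate 3 it was called higher there (0.20, adjusted p = 0.0223 in edgeR), as it was without both libraries numbered 3 (0.18, adjusted p = 0.0227). In C4-2 the gene stood at 11.4, 8.82 and 9.47 CPM with palbociclib, against 40.7 and 37.8 CPM with DMSO, a fall of 4.09-fold (-2.03 ± 0.16, edgeR adjusted p = 2.93e-14). FANCG, a scaffold subunit of the core, fell under both labels. It had 38.4, 38 and 43.7 CPM in palbociclib DU145 libraries, against 71.3, 78.2 and 77.4 CPM in DMSO ones (-0.89 ± 0.08, edgeR adjusted p = 5.01e-08). Its C4-2 levels were 15.9, 13.8 and 15.7 CPM with palbociclib, against 39.0 and 44.8 CPM with DMSO (-1.50 ± 0.14, edgeR adjusted p = 6.84e-12). FANCA, which binds FANCG, did not follow it in DU145. Its values there were 99.4, 105 and 116 CPM with palbociclib, against 113, 106 and 114 CPM with DMSO (-0.03 ± 0.07, edgeR adjusted p = 0.752). In C4-2 FANCA had 17.6, 18.8 and 23.7 CPM with palbociclib, against 47.6 and 50.4 CPM with DMSO (-1.32 ± 0.13, edgeR adjusted p = 2.30e-11). FANCB, which sits with the ligase subunit FANCL, was the second gene called in opposite directions. It had 20.9, 22.6 and 18.9 CPM in palbociclib DU145 libraries, against 15.1, 16.0 and 13.2 CPM in DMSO ones (0.52 ± 0.11, edgeR adjusted p = 0.00049). In C4-2 it had 11.8, 12.6 and 12.1 CPM with palbociclib, against 17.2 and 17.2 CPM with DMSO (-0.55 ± 0.19, edgeR adjusted p = 0.0159). The remaining core genes moved less evenly. FANCE fell by 0.51 and 1.30 log2 units in DU145 and C4-2, and FANCC by 0.60 and 0.55; FANCF fell in DU145 alone by call (-0.37 ± 0.11, edgeR adjusted p = 0.00915), with 0.42 ± 0.30 in C4-2. FANCL (0.13 and -0.28) and FANCM (-0.10 and -0.36) passed in neither line. The FANCB fall in C4-2 lost its call without either DMSO library (adjusted p 0.0675 without replicate 1 and 0.0542 without replicate 2) and with DESeq2 (0.172), as did that of FANCC with DESeq2 (0.0861). In the annotation 23.6% of the exon bases of FANCA lie opposite exons of ZNF276.

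The ID complex and BRIP1 were set together here as a group, and all 3 genes fell under both labels. Of all genes tested in both lines, 8.67% did so. FANCD2 (chr3:10026414-10101930, plus strand), the protein whose ubiquitination is the central step of the pathway, had 46.4, 51.4 and 44.0 CPM in palbociclib DU145 libraries, against 61.1, 57.3 and 56.8 CPM in DMSO ones. The C4-2 libraries had 31.5, 27.6 and 31.4 CPM with palbociclib, against 79.7 and 81.6 CPM with DMSO. The groups were apart in both lines, by -0.28 ± 0.08 in DU145 (edgeR adjusted p = 0.00569) and -1.46 ± 0.10 in C4-2 (adjusted p = 9.61e-16). BRIP1 (FANCJ), the helicase that binds BRCA1, had 18.0, 19.1 and 15.7 CPM in palbociclib DU145 libraries, against 36.4, 35.5 and 26.7 CPM in DMSO ones (-0.87 ± 0.12, edgeR adjusted p = 4.4e-06). In C4-2 the gene stood at 16.3, 13.4 and 12.4 CPM with palbociclib, against 49.9 and 47.8 CPM with DMSO, a fall of 3.60-fold (-1.85 ± 0.14, edgeR adjusted p = 6.66e-15). FANCI, the partner of FANCD2, fell by 0.19 log2 units in DU145 and 1.18 in C4-2. Its DU145 call was lost without palbociclib replicate 3, DMSO replicate 1 or DMSO replicate 2 (adjusted p 0.0998, 0.0663 and 0.11).

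**Figure D3:**
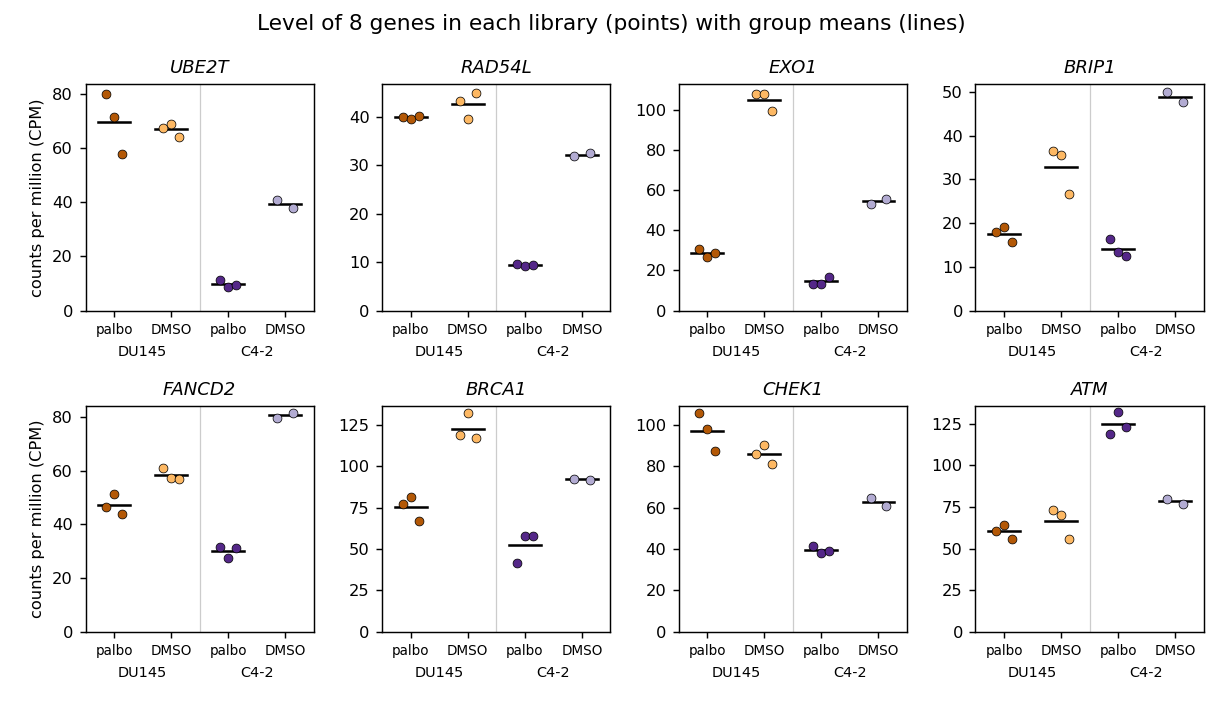
CPM (y axis, from 0) of 8 genes in each library, with points for libraries and lines for group means, for palbociclib and DMSO in DU145 (left of each panel) and C4-2 (right). EXO1, BRIP1 and BRCA1 lie lower with palbociclib under both labels, UBE2T and RAD54L are apart only in C4-2, and ATM is higher with palbociclib in C4-2, at 119 to 132 CPM against 76.9 and 79.7 CPM.

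Of the checkpoint genes, 1 of 6 fell and 1 rose in DU145. In C4-2, 4 of 6 fell and 2 rose, ATM and ATR, of which the rise of ATR was lost under several alternatives. ATM (chr11:108222484-108369102, plus strand), the kinase activated by breaks, had 60.7, 64.4 and 55.9 CPM in palbociclib DU145 libraries, against 73.3, 70.0 and 55.6 CPM in DMSO ones, which overlapped (-0.11 ± 0.09, edgeR adjusted p = 0.315). Its C4-2 levels were 119, 132 and 123 CPM with palbociclib, against 79.7 and 76.9 CPM with DMSO (0.62 ± 0.08, edgeR adjusted p = 6.29e-09). ATR, the kinase of stalled forks, had 63.8, 63.9 and 60.8 CPM in palbociclib DU145 libraries, against 73.9, 73.5 and 63.2 CPM in DMSO ones (-0.14 ± 0.08, edgeR adjusted p = 0.135). In C4-2 it had 87.6, 93.9 and 80.5 CPM with palbociclib, against 69.1 and 73.0 CPM with DMSO, where the groups were apart by a smaller step than for ATM (0.25 ± 0.09, edgeR adjusted p = 0.0171). CHEK1, the effector kinase of ATR, was the third gene called in opposite directions. It had 106, 98.1 and 87.2 CPM in palbociclib DU145 libraries, against 86.1, 90.1 and 81.0 CPM in DMSO ones, groups that overlapped (0.20 ± 0.08, edgeR adjusted p = 0.0298). The C4-2 libraries had 41.5, 37.9 and 39.1 CPM with palbociclib, against 64.5 and 60.7 CPM with DMSO (-0.71 ± 0.10, edgeR adjusted p = 2.28e-07). CHEK2, the effector of ATM, fell in C4-2 (-0.70 ± 0.19, edgeR adjusted p = 0.00251) and did not pass in DU145 (-0.20 ± 0.10); its C4-2 call was lost with DESeq2 (adjusted p 0.0661). TOPBP1, an activator of ATR, fell in C4-2 (-0.63 ± 0.08, adjusted p = 7.12e-09 in edgeR), with 0.05 ± 0.07 in DU145. ATRIP, the partner of ATR, fell by 0.28 log2 units in DU145 and 1.11 in C4-2, where it had 10, 25 and 34 counts with palbociclib, against 54 and 52 with DMSO; its exons hold all those of TREX1, whose reads cannot be told apart from its own there. The ATR rise in C4-2 lost its call without palbociclib replicate 2 or DMSO replicate 1 (adjusted p 0.0775 and 0.157) and with DESeq2 (0.143). The CHEK1 rise in DU145 lost it without any one of palbociclib replicates 1 and 2 and DMSO replicates 1 and 3 (0.0696 to 0.159), and the ATRIP fall there without palbociclib replicate 2, DMSO replicate 2 or DMSO replicate 3 (0.236, 0.109 and 0.0897). Conversely, ATM, ATR and CHEK2 were called lower in DU145 without DMSO replicate 3 (-0.22, -0.20 and -0.29, adjusted p 0.031, 0.0326 and 0.0169) and without both libraries numbered 3 (0.022, 0.0124 and 0.017), and CHEK2 also without palbociclib replicate 2 (0.0387).

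MSH6, which with its partner recognises base mismatches, had 175, 170 and 169 CPM in palbociclib DU145 libraries, against 196, 195 and 181 CPM in DMSO ones. These groups did not overlap, but the difference did not pass the test (-0.13 ± 0.06, edgeR adjusted p = 0.0811). In C4-2 MSH6 had 78.2, 80.9 and 81.7 CPM with palbociclib, against 166 and 149 CPM with DMSO (-1.02 ± 0.07, edgeR adjusted p = 8.12e-16), a fall of 2.03-fold. MSH6 was called lower in DU145 with scaling by library totals (-0.15, edgeR adjusted p = 0.0408) and with a replicate block (-0.13, 0.00673). It was also called lower there without DMSO replicate 3 (-0.16, 0.0439) and without both libraries numbered 3 (-0.15, 0.00568). Under the other alternatives its DU145 difference did not pass.

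The difference between the lines was tested for each gene in one fit over the 11 libraries, as the DU145 response minus the C4-2 response. It was positive by call for 20 of the 35 genes and negative for 2, and 13 did not pass. Of the 18139 genes in this fit, 18.4% were called positive and 15.0% negative, 33.4% in all; the median difference was 0.64 for the 35 genes and -0.02 for all genes. UBE2T differed by 2.15 ± 0.21 log2 units (edgeR adjusted p = 7.71e-10) and RAD54L by 1.77 ± 0.19 (adjusted p = 4.01e-09). FANCA and RAD51AP1 each differed by 1.32, BARD1 by 1.23, BLM by 1.22 and FANCD2 by 1.21. The 2 negative differences were those of ATM (-0.70 ± 0.14, edgeR adjusted p = 0.00014) and ATR (-0.35 ± 0.13, adjusted p = 0.0317). For BRCA1 (0.20 ± 0.15), BRCA2 (0.06 ± 0.24), EXO1 (0.12 ± 0.17) and FANCC (-0.02 ± 0.20) the difference did not pass, and their standard errors are too large to show that the lines respond alike. The calls for RBBP8, XRCC3, RAD54B, FANCE, ATRIP and ATR were lost without at least 1 library. ATRIP moved most: without C4-2 palbociclib replicate 1, in which it had 10 counts, its difference was 0.51 (adjusted p = 0.162), against 0.87 with all libraries. The ATR difference was lost without C4-2 palbociclib replicate 2, either C4-2 DMSO library, or DU145 DMSO replicate 1 or 2 (adjusted p 0.0556 to 0.155). MKI67 and PCNA were also called positive in this fit, at 2.33 and 1.90 log2 units.

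**Figure D4:**
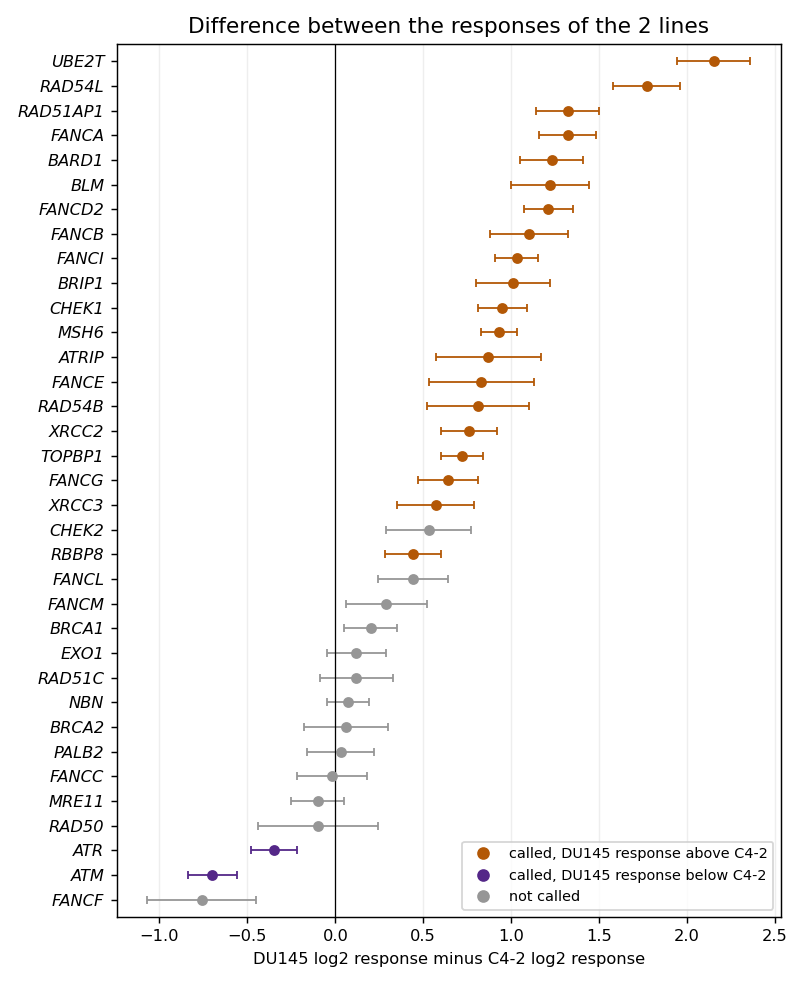
DU145 log2 response minus C4-2 log2 response (x axis) for each of the 35 genes, in order of size; bars are standard errors. UBE2T stands highest at 2.15, and ATM and ATR are the 2 genes called below 0.

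Beside the 35 genes, a list of 64 other genes of the same pathways was read, of which 63 were found in both tables. In DU145, 29 of 62 tested fell and 11 rose (median -0.18), and in C4-2, 32 of 61 tested fell and 5 rose (median -0.44). Among other recombination genes, 11 of 20 fell (55.0%) and 3 rose (15.0%) in DU145, and 12 of 19 fell (63.2%) in C4-2. RMI2, of the complex around BLM, fell by 0.84 log2 units in DU145 and 1.05 in C4-2; DNA2, a second resection nuclease, fell in C4-2 (-1.46 ± 0.18) and not by call in DU145 (-0.06 ± 0.09), while EME1, a nuclease subunit, fell by 0.71 and 0.61. Among other Fanconi and crosslink repair genes, 5 of 14 fell (35.7%) and 4 rose (28.6%) in DU145, near the shares of all genes. In C4-2, 5 of 13 fell (38.5%) and 4 rose (30.8%). FAN1, a nuclease recruited by ubiquitinated FANCD2, was called in opposite directions: it had 11, 14.2 and 9.60 CPM in palbociclib DU145 libraries, against 27.4, 30.1 and 26 CPM in DMSO ones, and 21, 12 and 12 counts in palbociclib C4-2 libraries, against 3 and 7 in DMSO ones. UBE2W, another ubiquitin-conjugating enzyme, rose in both lines (0.99 ± 0.10 in DU145 and 0.84 ± 0.08 in C4-2), and RFWD3, a ubiquitin ligase, rose in DU145 (0.37 ± 0.06) and fell in C4-2 (-1.0 ± 0.07). Among other checkpoint genes, 9 of 18 fell and 3 rose in DU145, where 29.2% of all genes fell and 28.8% rose. C4-2 had 11 of 18 lower (61.1%), against 26.6% of all genes. CLSPN, the mediator between ATR and CHEK1, had 50.3, 51.9 and 48.2 CPM in palbociclib DU145 libraries, against 76.0, 75.9 and 63.5 CPM in DMSO ones. In C4-2 the gene stood at 17.0, 15.3 and 19.5 CPM with palbociclib, against 89.1 and 103 CPM with DMSO, a larger fall than that of any of the 35 genes (-2.50 ± 0.12, edgeR adjusted p = 7.91e-22). CDC25A, the phosphatase that CHEK1 marks for breakdown, rose in DU145 (0.89 ± 0.07) and fell in C4-2 (-1.58 ± 0.17), and RAD17, a clamp loader, fell in DU145 (-0.88 ± 0.10) with 0.40 ± 0.36 in C4-2. MDC1, the mediator of ATM at breaks, fell in C4-2 at 2, 4 and 7 counts with palbociclib, against 15 and 22 with DMSO. Of the 3 other mismatch repair genes, 2 fell in DU145 (PMS1, -0.66 ± 0.11, and MSH3, -0.44 ± 0.10) and MLH3 rose (0.32 ± 0.09). In C4-2 their values of 0.29 ± 0.16, -0.32 ± 0.22 and -0.14 ± 0.14 did not pass the test. Of the end joining genes, 2 of 7 tested fell in DU145 (28.6%), near the 29.2% of all genes called lower there. In C4-2, 4 of 8 fell and 1 rose, where 26.6% of all genes tested fell and 25.2% rose. PAXX fell by 0.75 and 0.98 log2 units in DU145 and C4-2, and PRKDC by 0.23 and 0.76. LIG4, the end joining ligase, rose in C4-2 (0.92 ± 0.22) with 0.19 ± 0.12 in DU145.

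Levels were compared between genes only as CPM per kilobase of the gene length in the DU145 table, as means over libraries. UBE2T had 42.2 ± 6.75 CPM per kilobase in palbociclib DU145 libraries and 40.5 ± 1.51 in DMSO ones (SD, n = 3 each). In C4-2 it had 5.99 ± 0.82 with palbociclib (SD, n = 3) and 23.8 ± 1.24 with DMSO (SD, n = 2). Under DMSO it stood highest of the 35 genes in both lines, and after it came EXO1, TOPBP1, RAD51AP1 and FANCG in DU145 (25.4 to 20.9) and NBN, RAD51AP1, TOPBP1 and FANCI in C4-2 (22.0 to 14.9). RAD50 stood lowest in both, at 0.593 ± 0.0215 in DU145 and 0.508 ± 0.0969 in C4-2, beside the exon overlap given above. In each line 18 of the 34 neighbouring pairs in this order differed by no more than the larger of their SDs, so much of the order is within the spread between libraries. The order was not compared between lines, whose tables were counted separately.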

How the data were processed

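RNA was sequenced from human prostate cancer lines labelled C42 and Du145, treated with palbociclib or DMSO, from directional libraries, per the labels' protocols. The authors deposited raw read counts per gene in a separate table per line. featureCounts 2.0.1 made the C4-2 table from paired reads and Ensembl 107 exons, with no strand option in its command, per the file headers; for the DU145 table no source used here names the counter or the annotation. The build was hg38, per the submitters' processing notes. Columns were matched to samples by name; those of the DU145 table, named for inhibitor and control, were matched by treatment and number. Reads that fall in exons of more than 1 gene can be lost or split by such counting; exon overlaps were read from GENCODE 29.

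From the counts, each line was fitted alone with edgeR 4.0.16 in R 4.3.3 (filterByExpr by group, TMM, quasi-likelihood F test, Benjamini-Hochberg over all genes tested, threshold 0.05), and 1 joint fit over the 56747 genes found in both tables tested the DU145 response minus the C4-2 response. A gene is said to be called where its adjusted p is under 0.05. Standard errors are the absolute log2 fold change over the square root of F. CPM are counts scaled to a library total of 1000000; per-library values carry no scaling factor. A count of 0 allows up to 0.186 CPM in the shallowest DU145 library and 1.15 CPM in the shallowest C4-2 library (3 counts), for counting error only. The fits were run on simulated counts with the same spread for every gene and few genes changed. These settings are unlike the data, so that run does not give error rates for the results here. Alternatives were DESeq2 1.42.0, other scaling and filters, a replicate block and leaving out each library. Of the 35 genes, full per-library values were planned for the 4 largest called falls and rises in each line and the 6 largest called differences between lines. They were also planned for BRCA1, BRCA2, FANCD2, CHEK1, ATM and ATR. MSH6 was given in full outside these rules. For each list of other pathway genes, up to 2 called genes with the largest change per line were named. MLH3 was named after its values were seen. The 35 genes and the lists were chosen with earlier results of these data known. Motifs were searched with Python 3.11.15.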

Additional observations from a re-analysis of the deposited data

Results flagged for a closer look

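By the test of the difference in the joint edgeR fit, the palbociclib response differed between DU145 and C4-2 libraries for 22 of the 35 genes. These are 62.9% of the 35, against 33.4% of all 18139 genes in this fit. Each value is the DU145 log2 response minus the C4-2 log2 response. The difference was positive for UBE2T (2.15), RAD54L (1.77), FANCA (1.32), RAD51AP1 (1.32), BARD1 (1.23), BLM (1.22), FANCD2 (1.21), FANCB (1.10), FANCI (1.03), BRIP1 (1.01), CHEK1 (0.95), MSH6 (0.93), ATRIP (0.87), FANCE (0.83), RAD54B (0.81), XRCC2 (0.76), TOPBP1 (0.72), FANCG (0.64), XRCC3 (0.57) and RBBP8 (0.44). It was negative for ATR (-0.35) and ATM (-0.70). For XRCC2, FANCB and CHEK1 the positive difference joins a called rise in DU145 to a called fall in C4-2. The XRCC2 and FANCB falls in C4-2 and the CHEK1 rise in DU145 were each lost under at least 1 alternative. Such opposite calls were as frequent among the 35 genes (8.57%) as among all genes tested in both lines (8.87%). For most of the other genes with a positive difference, it joins a smaller or uncalled change in DU145 to a fall in C4-2.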

How the results depend on the processing

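No called value of the 35 genes changed sign under any alternative run, and of their counts of calls only 2 small ones moved by over 1.5 times. Genes called higher in C4-2 numbered 2, but 1 with DESeq2 and 1 to 2 when 1 library was left out; genes with a called negative difference between lines numbered 2, but 1 with no filter on low counts and 1 to 3 when libraries were left out. Of the single-gene results, 31 lost and 3 gained a call in C4-2 over 383 repeats, 23 lost and 18 gained one in DU145 over 455, and 46 lost and 12 gained one for the difference over 630. Leaving out libraries gave 12 to 18 falls in DU145, 24 to 26 in C4-2 and 15 to 21 positive differences. A fit that leaves a single C4-2 DMSO library assumes that it varies like the other groups. DESeq2 called 20 falls among the 35 in C4-2, and 3793 genes there in all, against 6184 in edgeR; the cause was not tested. Scaling by library totals moved the median difference of all genes to -0.116, with 16 positive and 3 negative calls among the 35. The deviations of same-numbered palbociclib and DMSO libraries correlated by 0.01 and 0.03 in C4-2 and by 0.02, 0.04 and 0.13 for numbers 1, 2 and 3 in DU145. The number 3 libraries of DU145 thus deviated together, weakly, but not every pair passed 0.1 and not every library correlated best with its own number, so the numbers were not taken as pairs; without both number 3 libraries there were 18 falls and 4 rises. A replicate block gave 3 rises and 20 falls in DU145, 2 and 27 in C4-2, and 20 positive and 2 negative differences. The lower depth in C4-2 limits what can be said of ATRIP, FANCE, FANCF and RAD50, each under 20 counts in at least 1 library.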

Other observations

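Chosen after its values were seen, TREX1, the exonuclease that degrades cytosolic DNA, had 0 counts in all 6 DU145 libraries and all 5 usable C4-2 libraries. All 1515 of its annotated exon bases (100%) lie within exons of ATRIP on the same strand in GENCODE 29. Reads of the 2 genes in these shared bases cannot be told apart, and the part of their assignment in the counts of ATRIP was not tested. In DU145, mitochondrially encoded genes took 3.07% to 3.37% of counts with palbociclib, against 4.40% to 4.92% with DMSO; in C4-2 they were at 0 in all 5 usable libraries.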
